A study of Mus musculus with 9 samples.

Results

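The renin-angiotensin system was followed in the mouse ovary through 7 genes of its core, Agt, Ren1, Ace, Enpep, Agtr1a, Agtr2 and Atp6ap2, which were taken by symbol from a table of 54838 genes. Levels are in RPKM, reads divided by the length of the gene's exons and by the size of the library. All 7 were found, and all 7 passed the filter on low values used for testing, 0.5 RPKM or more in 3 or more libraries, as did 18889 genes in all. RNA was sequenced from whole ovaries of adult mice, 40 h after the females received pregnant mare serum gonadotropin (PMSG), which starts a cohort of follicles growing. There were 9 libraries in 3 groups of 3. The first group, DKO LXR TG-AMH-LXRb, lacks both liver X receptors, LXRα and LXRβ, and is labelled as carrying a transgene named for Amh, a gene of granulosa cells, and for LXRb. The second, DKO LXR, lacks both receptors and has no transgene in its label. The third was wild type (WT). All groups received PMSG. The strain, the deleted exons, the promoter beyond the transgene's name and the number of animals behind each library are not stated, and nothing says that libraries come from separate animals. The p-values therefore cover the spread among libraries, part of which may be technical.

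In the renin-angiotensin system, the protease renin cuts angiotensinogen to angiotensin I, and angiotensin-converting enzyme removes its last residues to give angiotensin II. Angiotensin II acts through the receptors AT1 and AT2, and aminopeptidase A, the product of Enpep, shortens it to angiotensin III. Ovaries hold their own renin-angiotensin system: in several mammals prorenin is made in theca cells and is secreted into follicular fluid around ovulation, and in rats AT2 was found in granulosa cells of atretic follicles. Liver X receptors are transcription factors activated by oxidised cholesterol, and in mouse kidney they are known to take part in the control of renin transcription.

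The start regions of the genes are given first because liver X receptors act by binding DNA. RefSeq promoter windows on GRCm38.p6, 250 bases before to 50 bases from the start on, were available for 6 of the 7 genes. Agtr1a had none, and Ace had 2, at its upstream start and at an internal start. LXR and RXR bind as a pair to direct repeats of the hexamer AGGTCA with 4 bases between, written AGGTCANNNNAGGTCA. Both strands of every window were searched for exact matches of this repeat, of the single hexamer, of TATAAA (the TATA box) and of TGACG (part of a cyclic AMP response element). The hexamer is part of the repeat. The windows of the 4 genes whose values are described most closely below are printed 5′ to 3′ on the strand of the gene, with matches in capitals.

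Ren1, chr1:133350424-133350723, plus strand: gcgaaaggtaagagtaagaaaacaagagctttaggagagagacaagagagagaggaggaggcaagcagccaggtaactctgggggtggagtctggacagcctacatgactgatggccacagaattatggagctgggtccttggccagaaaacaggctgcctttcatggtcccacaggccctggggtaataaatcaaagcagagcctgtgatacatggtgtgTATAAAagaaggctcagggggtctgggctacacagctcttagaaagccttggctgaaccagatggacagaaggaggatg
Ace, chr11:105967698-105967997, plus strand: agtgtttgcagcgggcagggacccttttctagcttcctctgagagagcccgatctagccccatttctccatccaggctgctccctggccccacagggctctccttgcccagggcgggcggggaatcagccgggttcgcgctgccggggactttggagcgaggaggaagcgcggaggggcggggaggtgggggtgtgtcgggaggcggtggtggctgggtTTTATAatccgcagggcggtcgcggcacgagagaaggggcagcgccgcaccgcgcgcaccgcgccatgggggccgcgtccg
Enpep, chr3:129332700-129332999, minus strand: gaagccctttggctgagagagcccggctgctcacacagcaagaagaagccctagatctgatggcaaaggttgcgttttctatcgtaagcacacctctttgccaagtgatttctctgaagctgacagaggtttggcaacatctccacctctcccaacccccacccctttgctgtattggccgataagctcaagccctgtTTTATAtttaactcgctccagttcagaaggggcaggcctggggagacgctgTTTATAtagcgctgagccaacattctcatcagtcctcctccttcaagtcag
Agtr2, chrX:21484374-21484673, plus strand: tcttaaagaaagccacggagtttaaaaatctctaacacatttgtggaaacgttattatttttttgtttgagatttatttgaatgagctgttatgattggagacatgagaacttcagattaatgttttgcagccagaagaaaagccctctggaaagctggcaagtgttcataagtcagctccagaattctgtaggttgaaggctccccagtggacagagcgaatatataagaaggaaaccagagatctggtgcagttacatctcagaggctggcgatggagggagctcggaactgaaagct

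In the Ren1 window TATAAA began at base -29 from the start, and in the Ace window the same motif lay on the other strand at base -31. Enpep had 2 matches on the other strand, at -52 and -1. The Agtr2 window held none of the motifs. Of the windows not printed, Agt had TATAAA at -30, Atp6ap2 had TGACG at -62, and the internal Ace window had the hexamer AGGTCA at -50. The LXR repeat was in none of these windows. Over all 32851 windows of this length, TATAAA was in 13.62%, the hexamer in 16.26%, TGACG in 20.81% and the repeat in 5 windows (0.01522%). A match is a string of letters, and an absent match says only that these letters are not in this window.

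The recovered depth was 40.1 to 47.6 M reads per library in DKO LXR TG-AMH-LXRb, 46.1 to 59.4 M in DKO LXR and 48.6 to 57.7 M in WT. Nr1h3, which encodes LXRα, averaged 0.67 ± 0.145 RPKM in DKO LXR TG-AMH-LXRb, 0.807 ± 0.273 in DKO LXR and 4.68 ± 0.701 in WT (SD, n = 3 each). Nr1h2, which encodes LXRβ, averaged 5.67 ± 0.458 RPKM in DKO LXR TG-AMH-LXRb, 6.53 ± 1.09 in DKO LXR and 18.8 ± 3.64 in WT (SD, n = 3 each). Both fell in both knockout groups against WT (limma, adjusted p 2.32e-05 to 0.000119). Nr1h2 was not higher in the libraries labelled TG-AMH-LXRb than in DKO LXR (-0.18 log2, limma, adjusted p = 0.621), so the table gave no check of the transgene, and comparisons with that group go by its label. The nuclear RNA Malat1 averaged 261 ± 16.4 RPKM in DKO LXR TG-AMH-LXRb, 199 ± 19.1 in DKO LXR and 7.38 ± 5.03 in WT (SD, n = 3 each). Neat1, also nuclear, averaged 58.4 ± 8.94, 55.3 ± 12.7 and 0.577 ± 0.304 RPKM in the same order. For both, every WT library lay below every knockout library. This split cannot be told apart from genotype here, and its part in the differences from WT below was not tested. In whole ovaries, a change in the number of cells of a type and a change of RNA per cell cannot be told apart.

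The members differed widely in level. Agt was the most abundant per length in 8 of 9 libraries, with Ren1 above it in TG-AMH-LXRb replicate 1, and Agtr1a was the lowest in 8 of 9, with Agtr2 below it in TG-AMH-LXRb replicate 2. Of the summed RPKM of the 7 genes, Agt made up 36.9 to 49.8% in DKO LXR TG-AMH-LXRb, 56.3 to 66.8% in DKO LXR and 58.3 to 66.5% in WT. Ren1 made up 24.3 to 38.9% in DKO LXR TG-AMH-LXRb, 5.36 to 21% in DKO LXR and 6.21 to 13.5% in WT. The summed level itself was 151 to 176 RPKM in DKO LXR TG-AMH-LXRb, 125 to 206 in DKO LXR and 149 to 173 in WT. In WT the order by mean was Agt, Atp6ap2, Ren1, Agtr2, Enpep, Ace and Agtr1a, and the library ranges of Atp6ap2 and Ren1 overlapped, as did those of Ren1 and Agtr2, of Agtr2 and Enpep, and of Enpep and Ace. Ace and Agtr1a did not overlap.

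**Figure D1:**
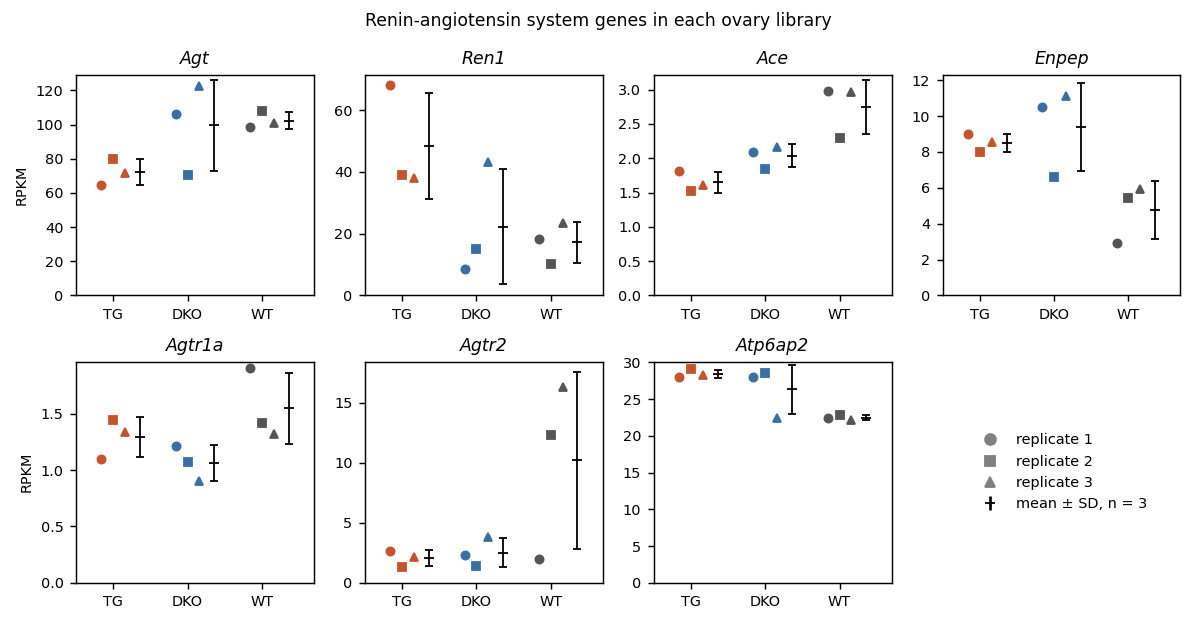
RPKM of each of the 7 genes in every library, in the groups DKO LXR TG-AMH-LXRb (TG), DKO LXR (DKO) and WT, with the group mean and SD (n = 3). Enpep lies higher in all 6 knockout libraries than in any WT library, and WT replicate 1 stands with the knockout libraries for Agtr2.

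Between DKO LXR TG-AMH-LXRb and WT, 4 of 7 members passed the test (limma, adjusted p under 0.05). Ren1, Enpep and Atp6ap2 rose and Ace fell. Among all genes tested 51.4% passed, 29.1% as higher and 22.3% as lower, so a share of 4 in 7 is near the background. Between DKO LXR and WT, 3 of 7 members passed, with Enpep higher and Ace and Agtr1a lower. Of all genes 56.7% passed, 30.8% as higher and 25.9% as lower. Between DKO LXR TG-AMH-LXRb and DKO LXR, 0 of 7 passed in limma, against 2.23% of all genes (0.498% higher and 1.73% lower). In that comparison 1 member, Ren1, had an unadjusted p under 0.05, and limma-voom on recovered reads also called 0. The median log2 change of the members was -0.19 in DKO LXR TG-AMH-LXRb against WT, -0.08 in DKO LXR against WT and -0.10 between the knockout groups. Over all genes tested the median was 0.03 in DKO LXR TG-AMH-LXRb and 0.02 in DKO LXR against WT, and 0.03 between the knockout groups. The count in DKO LXR TG-AMH-LXRb was 1 without any one of its own 3 libraries and 2 without WT replicate 3, and the count in DKO LXR was 1 without DKO LXR replicate 2; without DKO LXR replicate 2, 1 member (Agt) passed between the knockout groups. The WT libraries are shared by the first 2 comparisons and the DKO LXR libraries by the last 2.

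Ranges of the 3 libraries did not overlap between DKO LXR TG-AMH-LXRb and WT for 5 members. Ren1, Enpep and Atp6ap2 were higher throughout, where 35.6% of all genes tested were, and Agt and Ace were lower throughout, where 30.2% were. Between DKO LXR and WT, 1 member (Enpep) was higher in every library, against 32.6% of genes, and 2 (Ace and Agtr1a) were lower in every library, against 28.6%. Between the knockout groups only Ace did not overlap, lower in DKO LXR TG-AMH-LXRb (12.1% of genes did so). Taken alone, groups of 3 against 3 allow an exact two-sided permutation p no smaller than 0.10, so the calls rest on the spread shared across genes.

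**Figure D2:**
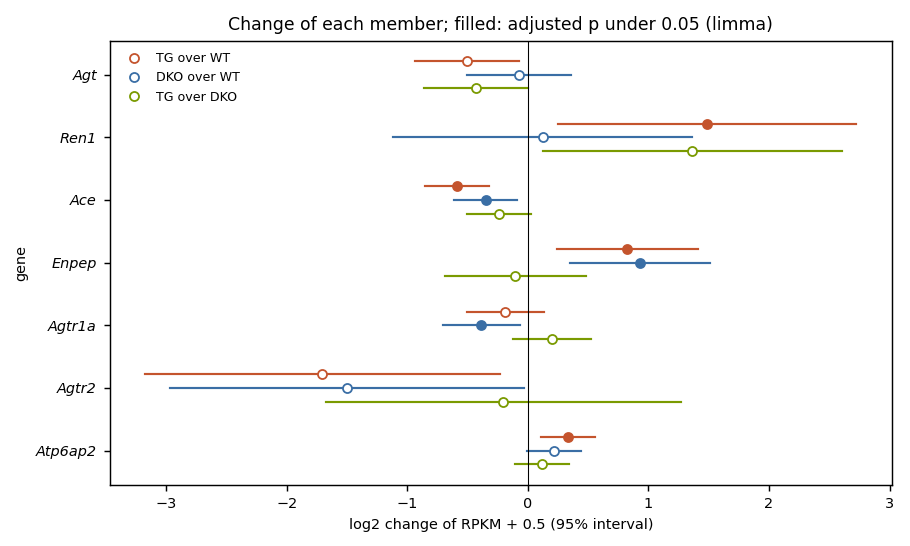
Log2 change of each of the 7 genes on the log2(RPKM + 0.5) scale with its 95% interval, for the 3 comparisons, filled where limma's adjusted p was under 0.05. TG stands for DKO LXR TG-AMH-LXRb and DKO for DKO LXR. The intervals of Enpep lie above 0 against WT in both knockout groups, and those of Ace below it (in TPM the Ace change in DKO turns to 0.11).

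Ren1 encodes renin, the protease that starts the cascade. Its gene lies at chr1:133350510-133360325 (mm10), and mice of some strains carry Ren2, a near-identical copy next to it, so reads of the copy could be counted here and the values are uncertain in that respect. Ren1 had 68.3, 38.9 and 37.9 RPKM in the libraries labelled TG-AMH-LXRb, 8.50, 15.0 and 43.3 RPKM in DKO LXR and 18.3, 10.1 and 23.3 RPKM in WT. All 3 TG-AMH-LXRb libraries lay above every WT library, while DKO LXR spanned the WT range and replicate 3 reached past 2 of the TG-AMH-LXRb libraries. Ren1 averaged 48.4 ± 17.3 RPKM in DKO LXR TG-AMH-LXRb, 22.3 ± 18.5 in DKO LXR and 17.2 ± 6.69 in WT (SD, n = 3 each). Against WT, Ren1 rose by 1.49 ± 0.55 on the log2 scale in DKO LXR TG-AMH-LXRb (limma, SE, 95% interval 0.25 to 2.73, adjusted p = 0.0474). In DKO LXR the change against WT was 0.12 ± 0.55 (adjusted p = 0.861), and without DKO LXR replicate 3 it was -0.51, without WT replicate 2 -0.21. The difference between the knockout groups was 1.36 ± 0.55 (95% interval 0.12 to 2.60) with an adjusted p of 0.267 in limma. It was 0.85 without DKO LXR replicate 1 (adjusted p = 0.479) and 1.99 without DKO LXR replicate 3 (adjusted p = 0.0710). The call against WT was lost without any one of the 3 WT libraries, the 3 TG-AMH-LXRb libraries or DKO LXR replicate 2, with an adjusted p of up to 0.146 without WT replicate 2. It was kept in 2 of 9 such fits. It was also lost with no filter on low values (adjusted p = 0.0929).

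Cyp17a1, the androgen-making enzyme of theca cells, had 955, 690 and 612 RPKM in DKO LXR TG-AMH-LXRb, 95.1, 59.0 and 200.2 in DKO LXR and 956, 164 and 190 in WT. The summed level of the 7 theca and interstitial markers was 933 to 1263 RPKM in DKO LXR TG-AMH-LXRb, 284 to 401 in DKO LXR and 599 to 1771 in WT. Cyp17a1 and Star made up most of the sum. The Cyp17a1 change against WT was 1.25 in DKO LXR TG-AMH-LXRb (limma, adjusted p = 0.147), and that of Star was -0.88 (adjusted p = 0.0800). Among the WT libraries the highest Cyp17a1 was in replicate 1 and the highest Ren1 in replicate 3. Against WT, 2 of the 7 markers rose (Gli1 and Nr2f2) and 0 fell in DKO LXR TG-AMH-LXRb, and 4 rose and 1 fell in DKO LXR (limma). Of all genes tested, 29.1% rose and 22.3% fell in DKO LXR TG-AMH-LXRb, and 30.8% rose and 25.9% fell in DKO LXR. The part of the theca and interstitial markers in the Ren1 difference was not tested. The sum of 7 kidney and adrenal markers was 7.39 to 15.3 RPKM in DKO LXR TG-AMH-LXRb, 1.78 to 8.59 in DKO LXR and 3.5 to 31.7 in WT. The kidney markers Umod and Slc12a1 were at or below 0.0170 RPKM in every library.

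Agt encodes angiotensinogen, the substrate of renin (chr8:124556534-124569706). It had 64.8, 79.7 and 71.7 RPKM in DKO LXR TG-AMH-LXRb, 106, 70.2 and 122 RPKM in DKO LXR and 98.4, 108 and 101 RPKM in WT. All TG-AMH-LXRb libraries were lower than all WT libraries, and DKO LXR was split, with replicate 2 among the TG-AMH-LXRb values, replicate 1 in the WT range and replicate 3 above it. Agt averaged 72.1 ± 7.47 RPKM in DKO LXR TG-AMH-LXRb, 99.5 ± 26.6 in DKO LXR and 102 ± 4.99 in WT (SD, n = 3 each). In DKO LXR TG-AMH-LXRb against WT the Agt change was 0.02 in TPM, or -0.45 relative to the median of all genes. For the values as deposited it was -0.51 ± 0.19 log2, just above the threshold (limma, adjusted p = 0.0505). Without DKO LXR replicate 2, whose Agt level is the lowest of its group, it passed at an adjusted p of 0.00599, and without DKO LXR replicate 3 at 0.0307. Against DKO LXR the change was -0.43 (limma, adjusted p = 0.316), which was -0.66 without DKO LXR replicate 2 (adjusted p = 0.0499) and -0.26 without DKO LXR replicate 3 (adjusted p = 0.499). The DKO LXR change against WT was -0.08 (limma, adjusted p = 0.747).

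Ace encodes angiotensin-converting enzyme, the peptidase of vessel walls that makes angiotensin II (chr11:105967945-105989964). It had 1.82, 1.52 and 1.60 RPKM in DKO LXR TG-AMH-LXRb, 2.09, 1.84 and 2.17 RPKM in DKO LXR and 2.97, 2.29 and 2.97 RPKM in WT. The 3 groups did not overlap, lowest in DKO LXR TG-AMH-LXRb and highest in WT. Against WT, Ace fell by 0.59 ± 0.12 log2 in DKO LXR TG-AMH-LXRb (limma, SE, 95% interval -0.85 to -0.33, adjusted p = 0.00302). It fell by 0.35 ± 0.12 in DKO LXR (95% interval -0.61 to -0.09, adjusted p = 0.0293). Of its exon bases 5.58% are shared with the antisense gene Gm11651, which had at most 0.0256 RPKM. Between the knockout groups the change was -0.24 and did not pass (limma, adjusted p = 0.363). The TG-AMH-LXRb call held in each of the 9 fits that left out a library, and the DKO LXR call was lost without WT replicates 1 or 3 or DKO LXR replicates 1 or 2 (adjusted p 0.0530 to 0.0914). Rescaled to TPM, where the median change of all genes was 0.47 in DKO LXR TG-AMH-LXRb and 0.48 in DKO LXR, the Ace change was -0.16 in DKO LXR TG-AMH-LXRb (adjusted p = 0.405) and 0.11 in DKO LXR (adjusted p = 0.573), so neither passed. Relative to the median of all genes, the Ace change was -0.63 in DKO LXR TG-AMH-LXRb and -0.38 in DKO LXR in TPM, against -0.62 and -0.37 for the values as deposited.

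Ace is a marker of endothelial cells, and the sum of 9 other endothelial markers was 123 to 141 RPKM in DKO LXR TG-AMH-LXRb, 98.1 to 169 in DKO LXR and 138 to 162 in WT. Of these markers 4 fell and 1 rose in DKO LXR TG-AMH-LXRb, and 5 fell and 1 rose in DKO LXR, against WT (limma, adjusted p under 0.05). Of all genes 51.4% were called in DKO LXR TG-AMH-LXRb, 22.3% as lower and 29.1% as higher. In DKO LXR 56.7% were called, 25.9% as lower and 30.8% as higher. The part of the endothelial markers in the Ace difference was not tested.

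Enpep encodes aminopeptidase A, which trims angiotensin II to angiotensin III and is found on pericytes (chr3:129269175-129332720). It had 9.02, 8 and 8.53 RPKM in DKO LXR TG-AMH-LXRb, 10.5, 6.59 and 11.1 RPKM in DKO LXR and 2.93, 5.44 and 5.96 RPKM in WT. All 6 knockout libraries were above all 3 WT libraries, and DKO LXR replicate 2 was the nearest to them. Against WT, Enpep rose by 0.82 ± 0.26 log2 in DKO LXR TG-AMH-LXRb (limma, SE, 95% interval 0.24 to 1.41, adjusted p = 0.0251) and by 0.93 ± 0.26 in DKO LXR (0.35 to 1.51, adjusted p = 0.0139). Between the knockout groups the change was -0.10 (limma, adjusted p = 0.877). The DKO LXR call held in each of the 9 fits without a library. The TG-AMH-LXRb call was lost without WT replicate 1 (adjusted p = 0.0623) or TG-AMH-LXRb replicates 1, 2 or 3 (adjusted p 0.0504 to 0.0715). It also missed the threshold with no filter (0.0517) and with quantile normalization (0.0619). The sum of 10 pericyte and smooth muscle markers was 195 to 232 RPKM in DKO LXR TG-AMH-LXRb, 200 to 329 in DKO LXR and 330 to 387 in WT. Acta2 made up most of this sum, with 241 of 330 RPKM in WT replicate 1. Against WT 4 of the 10 fell and 0 rose in each knockout group (limma), where 22.3% of all genes fell in DKO LXR TG-AMH-LXRb and 25.9% in DKO LXR. Of the pericyte genes, Rgs5 changed by 0.60 in DKO LXR TG-AMH-LXRb and 0.61 in DKO LXR. Kcnj8 and Abcc9 changed by 0.04 or less in either direction, and neither these nor Rgs5 passed (limma). Among the genes that fell, Pdgfrb changed by -0.61 in DKO LXR TG-AMH-LXRb and -0.73 in DKO LXR. Cspg4 changed by -0.60 and -0.67 (limma, adjusted p of these 2 genes 0.000651 to 0.00795). The part of these cells in the Enpep difference was not tested.

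A ratio of 2 genes within a library does not depend on how the library was scaled, apart from the 0.5 added to each value, and 3 such log2 ratios were tested in 3 comparisons (9 tests, exact permutation, smallest p 0.10). Enpep over Ace was 2.04, 2.07 and 2.1 in DKO LXR TG-AMH-LXRb, 2.09, 1.60 and 2.12 in DKO LXR and -0.02, 1.09 and 0.90 in WT. It was higher in all knockout libraries than in any WT library, by 1.41 in DKO LXR TG-AMH-LXRb and 1.28 in DKO LXR (exact permutation p = 0.1 each). Enpep and Ace had each separated these groups, in opposite directions, so the lack of overlap and this p were fixed beforehand. The knockout groups overlapped (difference 0.13, exact permutation p = 0.9).

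**Figure D3:**
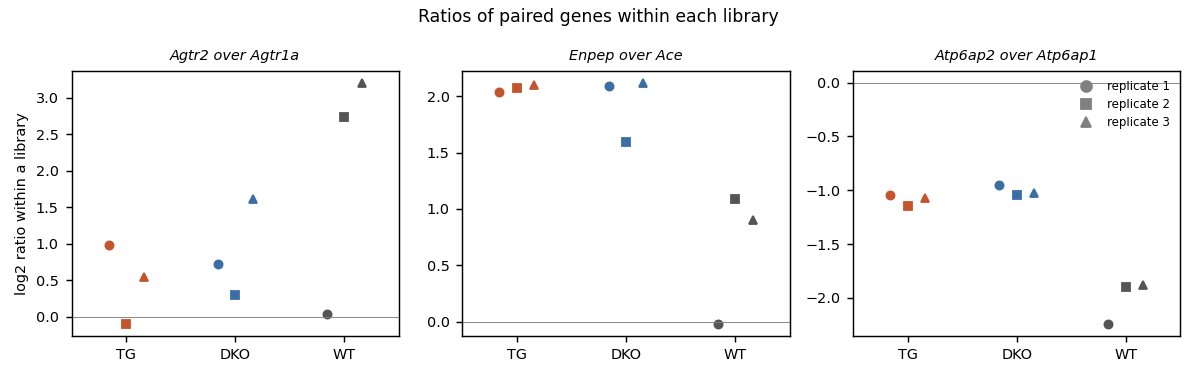
Log2 ratios of RPKM values (each plus 0.5) within each library for Enpep over Ace, Agtr2 over Agtr1a and Atp6ap2 over Atp6ap1, with 1 point per library. TG is DKO LXR TG-AMH-LXRb and DKO is DKO LXR; the 3 WT libraries lie below all 6 knockout libraries for Enpep over Ace and for Atp6ap2 over Atp6ap1.

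Agtr2 encodes AT2, the angiotensin II receptor that is high in fetal tissue and in atretic ovarian follicles of rats (chrX:21484544-21489164). It had 2.65, 1.32 and 2.17 RPKM in DKO LXR TG-AMH-LXRb, 2.33, 1.43 and 3.8 RPKM in DKO LXR and 1.98, 12.3 and 16.3 RPKM in WT. The WT libraries were split: replicates 2 and 3 lay far above all 6 knockout libraries, and replicate 1, with 301 reads, lay among them. The changes against WT were -1.71 ± 0.65 in DKO LXR TG-AMH-LXRb (limma, adjusted p = 0.0532) and -1.50 ± 0.65 in DKO LXR (95% interval -2.97 to -0.03, adjusted p = 0.0749), so neither passed. Without WT replicate 1 both passed in limma, at -2.56 in DKO LXR TG-AMH-LXRb (adjusted p = 0.00111) and -2.36 in DKO LXR (adjusted p = 0.00151), and without WT replicate 3 the changes were -1.18 in DKO LXR TG-AMH-LXRb (adjusted p = 0.168) and -0.97 in DKO LXR (adjusted p = 0.232). WT replicate 1 also stood apart in other genes, with the lowest Malat1 (1.67 RPKM, against 9.36 and 11.1) and with 956 RPKM of Cyp17a1, and its part in the Agtr2 values was not tested. The sum of 9 granulosa markers was 1707 to 2083 RPKM in DKO LXR TG-AMH-LXRb, 1163 to 2344 in DKO LXR and 1848 to 2548 in WT, where replicate 1 was the lowest. Between the knockout groups the Agtr2 change was -0.20 (limma, adjusted p = 0.907).

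**Figure D4:**
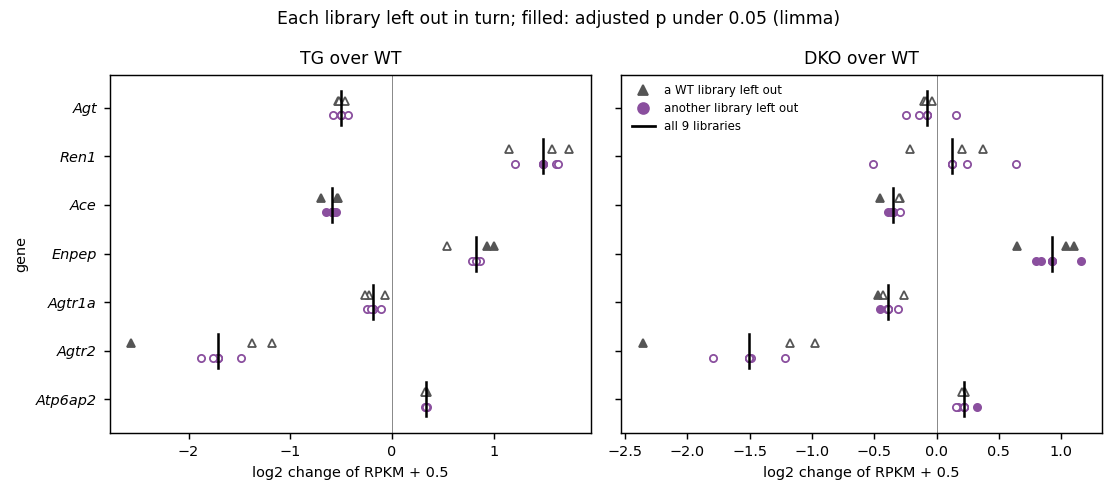
Log2 change against WT of each of the 7 genes with all libraries and with each library left out in turn, in DKO LXR TG-AMH-LXRb (TG) on the left and DKO LXR (DKO) on the right, filled where limma's adjusted p was under 0.05. Triangles are the fits without a WT library, circles those without another library, and the bar is the fit of all 9; without WT replicate 1 the change of Agtr2 is -2.56 in TG and -2.36 in DKO.

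Agtr1a encodes AT1a, the main angiotensin II receptor of mouse tissues (chr13:30336441-30382867). It had 1.10, 1.44 and 1.34 RPKM in DKO LXR TG-AMH-LXRb, 1.21, 1.08 and 0.9 RPKM in DKO LXR and 1.91, 1.42 and 1.32 RPKM in WT. DKO LXR lay below all WT libraries, and DKO LXR TG-AMH-LXRb overlapped both groups. Agtr1a fell by 0.39 ± 0.14 log2 in DKO LXR (limma, 95% interval -0.71 to -0.07, adjusted p = 0.0430). In TPM the change was 0.02, or -0.47 relative to the median of all genes. The call was lost in 6 of 9 fits without a library (adjusted p up to 0.136, without WT replicate 1). Those were the fits without WT replicates 1 or 2, DKO LXR replicates 2 or 3, or TG-AMH-LXRb replicates 2 or 3. In DKO LXR TG-AMH-LXRb the change was -0.19 (limma, adjusted p = 0.294), and between the knockout groups 0.20 (adjusted p = 0.542). The log2 ratio of Agtr2 over Agtr1a was 0.98, -0.10 and 0.54 in DKO LXR TG-AMH-LXRb, 0.72, 0.29 and 1.62 in DKO LXR and 0.04, 2.73 and 3.21 in WT, and the groups overlapped in each comparison (exact permutation p 0.3 to 0.5). Of the receptors outside the core, Agtr1b had 7, 3 and 7 reads in DKO LXR TG-AMH-LXRb, 5, 3 and 5 in DKO LXR and 3, 1 and 2 in WT. Mrgprd had 0 reads in every library, which allows up to 3 reads (0.0146 to 0.023 RPKM). Neither was tested by limma. Mas1, the Mas receptor, had 31, 25 and 17 reads in DKO LXR TG-AMH-LXRb, 24, 8 and 28 in DKO LXR and 0, 1 and 3 in WT, all below the filter.

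Atp6ap2 encodes the (pro)renin receptor, which is also an accessory subunit of the vacuolar proton pump, the V-ATPase (chrX:12587801-12617049). It had 28.0, 29.0 and 28.3 RPKM in DKO LXR TG-AMH-LXRb, 28.0, 28.5 and 22.5 RPKM in DKO LXR and 22.5, 22.8 and 22.1 RPKM in WT. The WT values and the TG-AMH-LXRb values lay in narrow, separate ranges, and DKO LXR replicate 3 fell among the WT values while replicates 1 and 2 lay near DKO LXR TG-AMH-LXRb. Atp6ap2 rose by 0.33 ± 0.10 log2 in DKO LXR TG-AMH-LXRb (limma, SE, 95% interval 0.11 to 0.56, adjusted p = 0.0212), lost without WT replicate 3 or any TG-AMH-LXRb replicate (adjusted p 0.0546 to 0.0666). In DKO LXR the change was 0.22 (limma, adjusted p = 0.0914), and without DKO LXR replicate 3 it was 0.32 (adjusted p = 0.0111). Of 16 V-ATPase genes, 1 rose and 8 fell in DKO LXR TG-AMH-LXRb and 1 rose and 12 fell in DKO LXR against WT (limma). The background was 51.4% in DKO LXR TG-AMH-LXRb (29.1% higher, 22.3% lower) and 56.7% in DKO LXR (30.8% higher, 25.9% lower). The median change of the V-ATPase genes was -0.28 in DKO LXR TG-AMH-LXRb and -0.51 in DKO LXR. In TPM the split was 5 higher and 1 lower in DKO LXR TG-AMH-LXRb and 3 higher and 3 lower in DKO LXR. The count that fell in DKO LXR TG-AMH-LXRb was 4 without WT replicate 1 and 3 without TG-AMH-LXRb replicate 1, and in DKO LXR 7 without DKO LXR replicate 3.

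The subunit with the largest rise was Tcirg1, the a3 subunit of the pump, which is high in osteoclasts and macrophages. It averaged 15.1 ± 1.02 RPKM in DKO LXR TG-AMH-LXRb, 22.5 ± 2.34 in DKO LXR and 3.9 ± 1.1 in WT (SD, n = 3 each) and rose by 1.85 log2 in DKO LXR TG-AMH-LXRb (limma, adjusted p = 4.15e-05) and by 2.41 in DKO LXR (adjusted p = 8.51e-06) against WT. Its reads were not recovered as whole numbers, so limma-voom did not test it. The sum of 8 macrophage markers was 85.8 to 90.0 RPKM in DKO LXR TG-AMH-LXRb, 177 to 356 in DKO LXR and 121 to 156 in WT. Against WT 0 of the 8 rose and 3 fell in DKO LXR TG-AMH-LXRb, and 7 rose and 0 fell in DKO LXR (limma). In DKO LXR TG-AMH-LXRb against DKO LXR, 7 fell. Among all genes against WT, 29.1% rose and 22.3% fell in DKO LXR TG-AMH-LXRb, and 30.8% rose and 25.9% fell in DKO LXR. Between the knockout groups 1.73% of all genes fell. The part of the macrophage markers in the Tcirg1 difference was not tested. Atp6ap1, the other accessory subunit, averaged 61 ± 3.48 RPKM in DKO LXR TG-AMH-LXRb, 53.3 ± 6.6 in DKO LXR and 92.3 ± 13.7 in WT (SD, n = 3 each) and fell by 0.58 log2 in DKO LXR TG-AMH-LXRb (limma, adjusted p = 0.00633) and by 0.78 in DKO LXR (adjusted p = 0.00136) against WT. Atp6v1e1, of the pump's stalk, fell by 0.46 in DKO LXR TG-AMH-LXRb (limma, adjusted p = 0.0215) and by 0.89 in DKO LXR (adjusted p = 0.000811). Atp6v0d1, Atp6v0c and Atp6v1h fell in both knockout groups, by 0.83, 0.74 and 0.61 log2 in DKO LXR TG-AMH-LXRb and by 0.89, 0.98 and 0.97 in DKO LXR. The log2 ratio of Atp6ap2 over Atp6ap1 was -1.04, -1.15 and -1.08 in DKO LXR TG-AMH-LXRb, -0.95, -1.04 and -1.03 in DKO LXR and -2.24, -1.90 and -1.88 in WT. It was higher in every knockout library than in any WT library, by 0.92 in DKO LXR TG-AMH-LXRb and 1.00 in DKO LXR (exact permutation p = 0.1 each). In DKO LXR TG-AMH-LXRb this outcome was fixed beforehand, since Atp6ap2 was higher and Atp6ap1 lower than in every WT library. Between the knockout groups the difference was -0.08, also with no overlap (exact permutation p = 0.1).

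**Figure D5:**
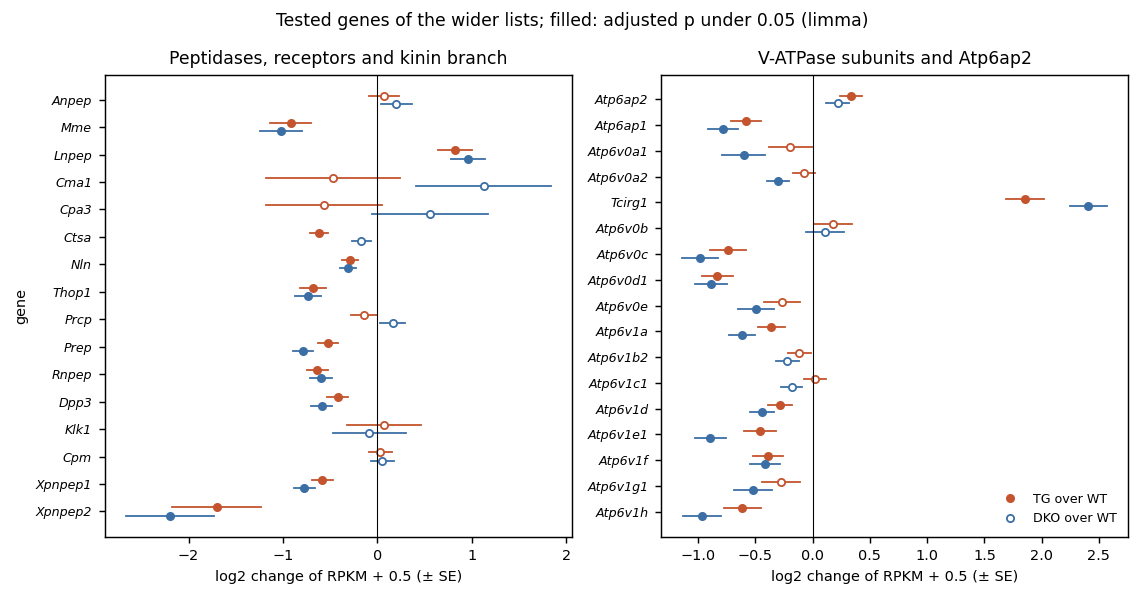
Log2 change ± SE of the tested other peptidases, receptors and kinin-branch genes (left) and of Atp6ap2 and the 16 V-ATPase genes (right), on the log2(RPKM + 0.5) scale, for DKO LXR TG-AMH-LXRb (TG) and DKO LXR (DKO) against WT, filled where limma's adjusted p was under 0.05. In DKO 12 of 16 V-ATPase genes are filled below 0 (3 in TPM), and Tcirg1 lies at 1.85 in TG and 2.41 in DKO.

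Of 17 other angiotensin peptidases and receptors, 13 were tested. Against WT, 1 rose and 7 fell in DKO LXR TG-AMH-LXRb (background 51.4%, with 29.1% higher and 22.3% lower). In DKO LXR 1 rose and 6 fell (background 56.7%, with 30.8% higher and 25.9% lower). Between the knockout groups 0 passed in limma, with 2 at an unadjusted p under 0.05 and 0 by limma-voom. In TPM the split was 3 higher and 0 lower in DKO LXR TG-AMH-LXRb and 4 higher and 2 lower in DKO LXR. Lnpep, the aminopeptidase that binds angiotensin IV, averaged 11 ± 0.902 RPKM in DKO LXR TG-AMH-LXRb, 12.2 ± 0.637 in DKO LXR and 6.15 ± 1.73 in WT (SD, n = 3 each) and rose by 0.82 log2 in DKO LXR TG-AMH-LXRb (limma, adjusted p = 0.00497) and by 0.96 in DKO LXR (adjusted p = 0.0021) against WT. Among the peptidases that fell in DKO LXR were Prep (prolyl endopeptidase) by 0.79, Thop1 (thimet oligopeptidase) by 0.74, Rnpep (aminopeptidase B) by 0.60 and Dpp3 (dipeptidyl peptidase) by 0.59 log2. In DKO LXR TG-AMH-LXRb, Thop1 fell by 0.68, Rnpep by 0.63, Ctsa (cathepsin A) by 0.62 and Prep by 0.52 (adjusted p 0.000996 to 0.00346). Ctsa shares 10.5% of its exon bases with Pltp and 6.87% with Neurl2, and the strand setting is not given, so its reads may be split. Mme, neprilysin, chosen after its values were seen, averaged 0.902 ± 0.131 RPKM in DKO LXR TG-AMH-LXRb, 0.834 ± 0.35 in DKO LXR and 2.19 ± 0.614 in WT (SD, n = 3 each) and fell by 0.92 log2 in DKO LXR TG-AMH-LXRb (limma, adjusted p = 0.00788) and by 1.02 in DKO LXR (adjusted p = 0.00435) against WT.

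Of 13 partners and G protein signalling genes of the angiotensin receptors, 2 rose and 0 fell in DKO LXR TG-AMH-LXRb against WT (limma, background 29.1% higher and 22.3% lower, 51.4% in all). In DKO LXR 3 rose and 2 fell against WT (background 30.8% higher and 25.9% lower, 56.7% in all). The count called in DKO LXR TG-AMH-LXRb was 1 without TG-AMH-LXRb replicate 1 and 6 without DKO LXR replicate 3, and that in DKO LXR was 3 without WT replicate 2. In TPM the split was 10 higher and 0 lower in DKO LXR TG-AMH-LXRb and 8 higher and 0 lower in DKO LXR. Arrb2, a β-arrestin that takes up activated receptors, averaged 8.46 ± 0.766 RPKM in DKO LXR TG-AMH-LXRb, 12.5 ± 1.72 in DKO LXR and 5.17 ± 0.719 in WT (SD, n = 3 each) and rose by 0.66 log2 in DKO LXR TG-AMH-LXRb (limma, adjusted p = 0.00308) and by 1.2 in DKO LXR (adjusted p = 0.000128) against WT. Arrb1, the other β-arrestin, rose by 0.29 in DKO LXR (limma, adjusted p = 0.0152). Gna13, the α subunit of G13, rose by 0.37 in DKO LXR TG-AMH-LXRb and 0.35 in DKO LXR. Gnaq and Gna11, the G proteins that AT1 couples to, fell in DKO LXR against WT, Gnaq by 0.41 (limma, adjusted p = 0.00255) and Gna11 by 0.38 (adjusted p = 0.0278). Of 8 kinin-branch genes 3 were tested, and 2 of them, aminopeptidases that inactivate bradykinin, fell in both knockout groups (background 51.4% called in DKO LXR TG-AMH-LXRb, 22.3% as lower, and 56.7% in DKO LXR, 25.9% as lower). In TPM 1 fell in each comparison, and without TG-AMH-LXRb replicate 3, 1 fell in DKO LXR TG-AMH-LXRb. Xpnpep1 fell by 0.58 log2 in DKO LXR TG-AMH-LXRb (limma, adjusted p = 0.00262) and by 0.77 in DKO LXR (adjusted p = 0.000565) against WT, and Xpnpep2 fell by 1.7 log2 in DKO LXR TG-AMH-LXRb (limma, adjusted p = 0.0149) and by 2.19 in DKO LXR (adjusted p = 0.00419) against WT. Between the knockout groups 0 genes of these last 2 lists and of the V-ATPase list passed in limma; 4 partners, 0 kinin-branch genes and 3 V-ATPase genes had an unadjusted p under 0.05. There limma-voom called 0, TPM, median ratios and the plain total called 1 partner lower each and quantile normalization 2, and 1 V-ATPase gene was called lower with the plain total and without WT replicate 1. Of the other angiotensin peptidases and receptors, 1 was called lower between the knockout groups with median ratios, quantile normalization, the plain total and protein-coding genes only.

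Profiles over the 9 libraries were compared by the root mean square difference of centred log2 values among 11838 protein-coding genes. The nearest genes were Bcl2l1 (0.0996) and Lrrc61 (0.161) to Agt, Gpd1 (0.549) and Klhl31 (0.555) to Ren1, Sh3bp4 (0.0691) and Axl (0.0774) to Ace, and Clec16a (0.0570) and Apeh (0.0669) to Agtr1a. For Agtr2 they were S100b (0.497) and Slc38a5 (0.520), for Atp6ap2 Phospho2 (0.0378) and Nmnat1 (0.0461), and for Enpep Greb1l (0.0961) and Dock9 (0.111). The SD of the members themselves was 0.325 for Agt, 0.997 for Ren1, 0.281 for Ace, 0.224 for Agtr1a, 1.16 for Agtr2, 0.175 for Atp6ap2 and 0.544 for Enpep. Ren1 and Agtr2 varied most, and their nearest genes were the farthest away.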

How the data were processed

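Total RNA of 9 mouse ovary samples was sequenced, in 3 groups of 3 by the labels. The authors deposited 1 table of RPKM values. Per the submitters' processing notes, the tools on mm10 included cutadapt and HISAT2 2.1.0, and also DESeq2 1.2.8 and HTSeq 0.5.4p5. The RPKM step, annotation and strand setting were not given in the sources used here. Columns spelled TG-AMBb were matched to TG-AMH-LXRb samples by group and number. Multiplying by GENCODE M21 union exon lengths returned whole reads for 97.8% of values above 0 (within 0.01 read or a relative 1e-06); the library size behind the RPKM was 0.793 to 0.920 of the recovered total in WT and 1.03 to 1.11 in the others.

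The members and lists were chosen with earlier results of these data known. Differences were tested in R 4.3.3 with limma 3.58.1 on log2(RPKM + 0.5) (lmFit, eBayes with trend), all 9 libraries in one fit, for the 18889 genes that reached 0.5 RPKM in at least 3 libraries. Benjamini-Hochberg adjusted p under 0.05 over all of them was the call. Fold changes on this scale understate those of low genes. Named genes were all members, from each list up to 4 higher and 4 lower called genes by lowest adjusted p, those of the ratios, and the 2 nearest profiles per member. One planned ratio and 1 listed gene are not reported here. The fit was tested on simulated data with few changed genes, the same dispersion for every gene and no shift of whole libraries. Far more genes were called against WT in the real data, so the simulation does not cover that setting. Alternatives were other pseudocounts (0.1 and 1), filters, scalings, a replicate block, 6 libraries only, and each library left out. Rescaling to the plain total of reads, limma-voom on recovered reads and protein-coding genes only were added after the data were seen.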

Additional observations from a re-analysis of the deposited data

How the results depend on the processing

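The number of members called against WT in DKO LXR TG-AMH-LXRb was 2 without a filter and 1 to 5 over the fits that left out a library. There 2 were higher and 3 lower with quantile normalization, and 3 higher and 0 lower in TPM. With only the 6 libraries, with limma-voom and with protein-coding genes only, 3 were higher and 2 lower each time. In DKO LXR the number called was 1 without a filter, 1 with only the 6 libraries of the comparison and 5 with quantile normalization. It ranged from 1 to 3 without a library, and between the knockout groups from 0 to 1. All-gene medians against WT (0.03 and 0.02 as deposited) moved to 0.47 and 0.48 in TPM, 0.25 and 0.28 with the plain total, and 0.10 each with median-ratio rescaling. Agt in DKO LXR against WT turned to 0.47 in TPM, 0.029 with median ratios, 0.51 with quantiles and 0.24 with the plain total, and ranged from -0.24 to 0.15 without a library. Agt in DKO LXR TG-AMH-LXRb turned to 0.021 in TPM and 0.0077 with quantiles. Of the 12 alternatives other than leaving out a library, it passed as lower in 3 (limma, lowest adjusted p 0.00561). Ace and Agtr1a in DKO LXR turned to 0.11 and 0.015 in TPM, and Agtr1a in DKO LXR TG-AMH-LXRb to 0.20 in TPM and 0.010 with the plain total. Relative to the median of all genes in TPM, Agtr1a was -0.47 in DKO LXR and -0.27 in DKO LXR TG-AMH-LXRb. As deposited these values were -0.40 and -0.22. On the same measure Agt in DKO LXR TG-AMH-LXRb was -0.45 in TPM and 0.072 with quantiles, against -0.54 as deposited. Agt in DKO LXR was -0.011 in TPM and 0.57 with quantiles, against -0.092. Without a library, Ren1 in DKO LXR against WT ranged from -0.51 to 0.63, and between the knockout groups Agtr2 from -0.49 to 0.089 and Enpep from -0.33 to 0.027. The log2 ratio of Enpep over Ace between the knockout groups ranged from -0.035 to 0.23. The Ace and Agtr1a calls in DKO LXR were also lost with no filter (adjusted p = 0.0612 and 0.0931), with median ratios, with only 6 libraries and with the plain total; quantile normalization called Agtr2 in both comparisons with WT and Agtr1a in DKO LXR TG-AMH-LXRb (-0.55). Atp6ap2 in DKO LXR was called under all 4 other scalings (0.32 to 0.76). Measured from the median of all genes, its change was 0.27 in TPM, 0.24 with the plain total and 0.22 with median ratios. It was 0.55 with quantiles and 0.20 as deposited. The cause of these shifts was not tested. Depth limited Mas1, Agtr1b and Mrgprd, at 31 reads or fewer in every library.

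Deviations from the group means correlated at -0.309 to 0.142 between same-numbered samples and at -0.262 to 0.322 between samples of different number. This gave no sign of pairing by number, but with 3 libraries in each group it cannot exclude pairing. With the replicate block, 3 members were called in DKO LXR TG-AMH-LXRb and 2 in DKO LXR against WT, and 0 between the knockout groups; Ren1 (adjusted p = 0.0513) and Agtr1a (0.0652) were the calls lost.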
